A study of Drosophila melanogaster with 24 samples.

Results

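The response of male *Drosophila melanogaster* to heat ramping was compared between flies kept at a constant 25 °C and flies kept at a constant 15 °C. They stayed in these regimes from the egg into early adult life, and all were assayed at the same adult age. For each probe set the change with ramping at 25 °C, less the change with ramping at 15 °C, is called the interaction here. It was computed from 12 of the 24 arrays of the series, 3 in each of 4 groups. The groups were 25 °C constant flies heated to 35 °C, 25 °C constant flies kept at 20 °C, 15 °C constant flies heated to 35 °C and 15 °C constant flies kept at 20 °C. All flies came from the same field-collected laboratory stock, and no transgene or mutant strain is described for them. Each array measured a pool of whole males, so that fewer cells of a type and less RNA per cell cannot be told apart. All groups had been moved to 20 °C before the assay, and the ramped flies were then warmed by 0.1 °C per minute. Each developmental regime had its own cabinet, so the mean temperature and the cabinet cannot be told apart, and the replicates are pools from 1 cabinet. The values are GC-RMA expression levels on the log2 scale, so a difference of 1 is a doubling of signal, and the levels of different genes are not compared. All 18769 probe sets other than the array's own controls were tested.

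Heat unfolds proteins and activates heat shock factor, which drives transcription of the heat shock proteins. Small heat shock proteins hold unfolded clients, Hsp70 and Hsp60 chaperones refold them, and Hsp90 matures kinases and other clients together with cochaperones. Other transcripts fall during heat stress, as general transcription and translation are reduced. Flies that develop warm tolerate more heat as adults than flies that develop cool, and the size of the transcript response to a given heat exposure is one of the features in which such flies can differ.

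The 12 arrays correlated with each other at 0.969 to 0.998 (Pearson, across probe sets). Markers of the eye, flight muscle, testis and accessory gland were present. The median level of the eye list was 9.08 to 9.71 at 25 °C and 8.58 to 9.12 at 15 °C. For flight muscle it was 11.002 to 11.246 at 25 °C and 12.045 to 12.211 at 15 °C. For testis it was 10.79 to 11.41 at 25 °C and 11.51 to 11.73 at 15 °C. For the accessory gland it was 12.53 to 12.79 at 25 °C and 12.84 to 13.33 at 15 °C. Egg shell and yolk genes, which females express, had a median of 4.08 to 4.64 on 11 of the arrays but of 8.42 on 15 °C constant, 20 °C, replicate 1. Over the 19 genes of that list this array read a median of 4.70 above the other 2 arrays of its group. The interaction was therefore also computed without this array, and values without it are given beside the results that it moves most.

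The ramp response of 71 probe sets differed between the mean temperatures (adjusted p under 0.05, limma, 0.378% of those tested), and 64 of them carry a single gene symbol. In 50 (0.266% of those tested) the change with ramping was higher at 25 °C, by 0.51 to 1.67. In the other 21 (0.112%) it was lower at 25 °C, by 0.52 to 1.99 (interactions of -0.52 to -1.99). The median interaction over all probe sets was -0.03 and the median standard error 0.14. An unadjusted p under 0.05 was reached by 1808 probe sets (9.63%). Without the array with egg shell transcripts 94 probe sets were called (0.501%), among them 69 of the 71. The *baf* gene, which encodes a chromatin-binding protein, lost its call there (interaction 0.53, adjusted p = 0.059, limma), as did 1 probe set annotated to more than 1 gene. Of the 71 calls 32 remained whichever of the 12 arrays was left out, among them those of *AsnS*, *CG12795*, *Hsp27*, *Sgt1*, *Cdc37*, *tra*, *Cubn*, *Hand*, *LManIII* and *Cyp12d1-d*.

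**Figure D1:**
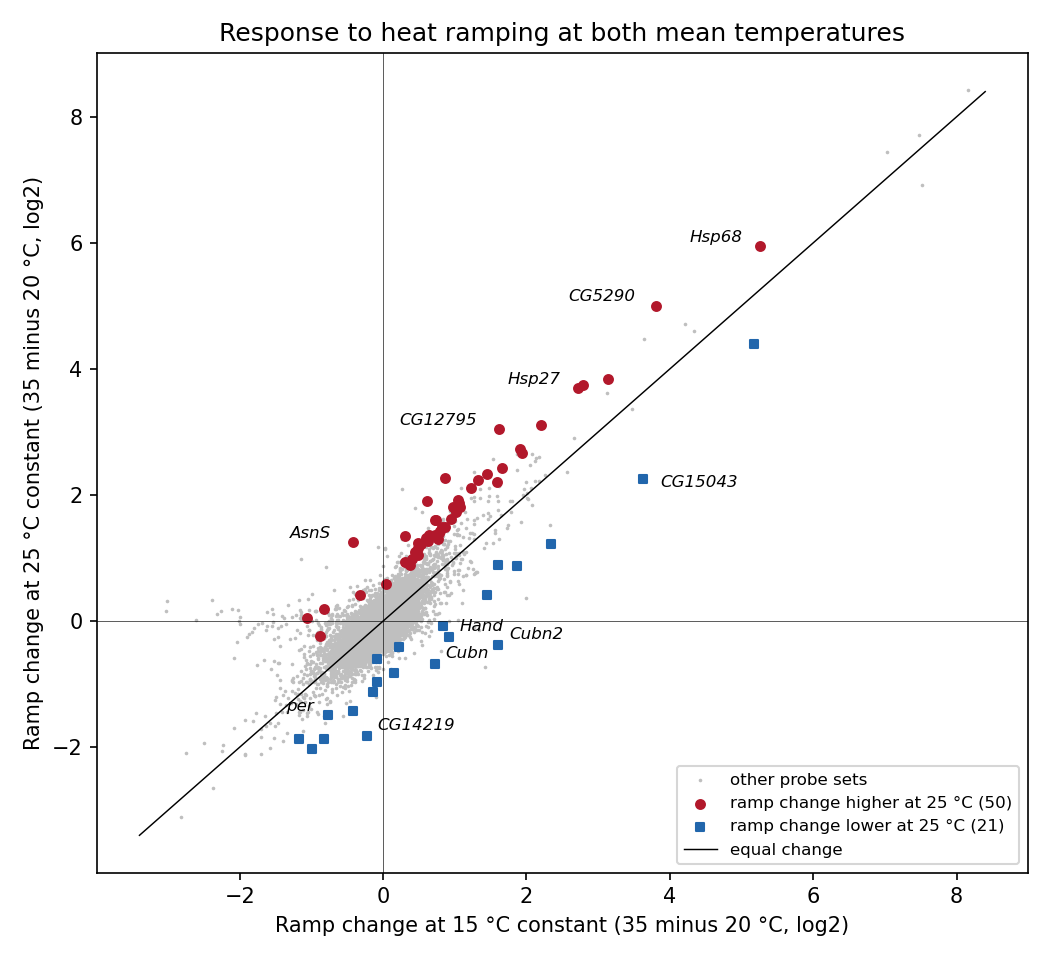
Change with heat ramping (35 minus 20 °C, log2) in flies from constant 25 °C (vertical axis) against flies from constant 15 °C (horizontal axis), 1 point per probe set. The 50 red points lie above the line of equal change and the 21 blue squares below it, and *AsnS* and *Cubn* lie in the quadrants where the changes have opposite signs.

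Most of the genes with a higher interaction were induced by ramping in both sets of flies, and more so in flies from 25 °C. Of the 50 probe sets, 43 rose with ramping at both mean temperatures (adjusted p under 0.05 at each, limma). This held for 4.45% of all probe sets tested (8.33% rose at 25 °C and 6.23% at 15 °C). By sign alone, 45 of the 50 were above 0 at both. In 4 the change was above 0 at 25 °C and under 0 at 15 °C, and 1, *CG32115*, fell at both, by 0.24 at 25 °C and by 0.88 at 15 °C (adjusted p = 0.047 and 8.0e-06, limma). The 21 probe sets with a lower interaction were mixed. At both mean temperatures 6 of them rose and 5 fell by the same threshold. Of all probe sets 9.69% fell at 25 °C and 7.89% at 15 °C, and the share that fell at both was not counted. By sign alone, 6 of the 21 were above 0 at both and 9 were under 0 at both. In the other 6 the change was under 0 at 25 °C and above 0 at 15 °C. The share of all probe sets with opposite signs was not counted.

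*AsnS*, which encodes asparagine synthetase and is known as a target of the amino acid response, had the largest interaction of the genes that were higher. Its levels were 8.99, 9.09 and 9.33 in ramped and 7.93, 7.78 and 7.97 in unramped flies from 25 °C, against 7.05, 6.93 and 6.70 in ramped and 7.58, 7.12 and 7.25 in unramped flies from 15 °C. All ramped arrays were above all unramped arrays at 25 °C and below them at 15 °C. The interaction was 1.67 ± 0.18 (SE, adjusted p = 0.0045, limma). Ramping raised *AsnS* by 1.25 at 25 °C, and it fell by 0.42 at 15 °C (adjusted p = 0.048, limma). The highest of its unramped levels at 15 °C, 7.58, was on the array with egg shell transcripts. The fall was close to the threshold and was not tested without that array. *AsnS* was the only called gene among 15 measured genes of the integrated stress response and serine metabolism. Of these, 11 had an interaction above 0 (median 0.11, against -0.02 over all genes), and 8 without the array with egg shell transcripts (median 0.09). The kinase genes *Gcn2* and *PEK*, which act at the start of this response, had interactions of 0.49 (adjusted p = 0.14) and 0.39 (adjusted p = 0.24), and the transcription factor gene *crc*, the fly counterpart of ATF4, 0.03 (adjusted p = 0.92, limma).

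Among the heat shock proteins *Hsp27*, *Hsp68* and the cochaperones *Cdc37*, *Sgt1* and *CG7130* passed the test. *Hsp27*, a small heat shock protein, had 13.90, 13.72 and 13.73 in ramped and 10.05, 10.06 and 10.14 in unramped flies from 25 °C, against 13.54, 13.49 and 13.55 in ramped and 10.99, 10.65 and 10.77 in unramped flies from 15 °C. After ramping the 25 °C arrays were all above the 15 °C arrays, and without ramping all were below them. Its interaction was 0.98 ± 0.12 (SE, adjusted p = 0.0045, limma). The difference between mean temperatures was -0.72 in unramped and 0.26 in ramped flies, so most of the interaction came from the unramped levels.

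*Hsp68*, an inducible member of the Hsp70 family, had 14.16, 14.15 and 14.19 in ramped and 8.27, 8.14 and 8.26 in unramped flies from 25 °C, against 13.97, 13.99 and 13.95 in ramped and 8.55, 8.78 and 8.80 in unramped flies from 15 °C. The arrays of the mean temperatures did not overlap in either assay. Ramping raised it by 5.94 at 25 °C and by 5.26 at 15 °C, with an interaction of 0.68 ± 0.11 (SE, adjusted p = 0.015, limma). Its call was lost when any of 4 arrays was left out, with an adjusted p of at most 0.059. *Hsp26*, another small heat shock protein, had 14.44, 14.50 and 14.51 in ramped flies from 25 °C and 14.39, 14.45 and 14.37 in ramped flies from 15 °C. Unramped, it had 10.07, 9.87 and 10.06 at 25 °C and 11.19, 10.49 and 10.63 at 15 °C, the highest of these on the array with egg shell transcripts. Its interaction was 0.85 (adjusted p = 0.12, limma), and 0.64 without that array (adjusted p = 0.031). The highest value of any probe set was 14.66 to 14.77 on each array, and the ramped levels of *Hsp68* and *Hsp26* lay close to it; the part of this ceiling in their interactions was not tested.

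Of 6 small heat shock proteins measured under a single symbol, *Hsp27* alone was called, 5 had an interaction above 0 and the median was 0.32. *l(2)efl*, related to crystallin, had 0.28, *CG4461* 0.36, *CG13133* 0.13 and *CG7409* -0.23. The list of Hsp70, Hsp90 and Hsp60 genes, which also holds the factor gene *Hsf*, had 13 measured members. Of these *Hsp68* alone was called and 6 were above 0, with a median of -0.06 (-0.01 without the array with egg shell transcripts). Most of the members not named here were under 0, and the lowest of the list was -0.24. *Hsp60C* had -0.22 (adjusted p = 0.65, limma). The constitutive *Hsc70-4* had -0.08 (-0.20 without that array), the mitochondrial *Hsc70-5* 0.29 and *Hsp60A* 0.34, and *Hsp110*, an exchange factor for Hsp70, had 0.40 (adjusted p = 0.33, limma). The factor that drives these genes, *Hsf*, had an interaction of 0.14 (adjusted p = 0.64, limma). The inducible *Hsp70* genes, *Hsp22*, *Hsp23* and *Hsp83* have no probe set under a single symbol, so no value is given under their names. A called probe set annotated to more than 1 small heat shock protein gene, whose signal cannot be assigned to any of them, went the other way. It rose by 4.39 at 25 °C and by 5.17 at 15 °C, to means of 14.3 at 25 °C and 14.2 at 15 °C, close to the array maximum (interaction -0.78, adjusted p = 0.048, limma). Its call was lost when any of 10 of the 12 arrays was left out (adjusted p of at most 0.13), and its interaction was -1.42 in fluctuating flies, where it was called (adjusted p = 0.0043, limma).

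*Cdc37*, which brings kinases to Hsp90, had 11.13, 11.19 and 11.25 in ramped and 9.44, 9.41 and 9.45 in unramped flies from 25 °C, against 10.79, 10.81 and 10.68 in ramped and 9.72, 9.79 and 9.74 in unramped flies from 15 °C. As for *Hsp27*, flies from 25 °C were higher after ramping and lower without it, with no overlap in either assay. The interaction of *Cdc37* was 0.74 ± 0.09 (SE, adjusted p = 0.0045, limma). *Sgt1*, whose product also binds Hsp90, had 11.41, 11.36 and 11.37 in ramped and 9.03, 9.23 and 9.15 in unramped flies from 25 °C, against 10.82, 10.90 and 10.82 in ramped and 9.48, 9.52 and 9.58 in unramped flies from 15 °C. The groups were ordered in the same way and the interaction was 0.92 ± 0.10 (SE, adjusted p = 0.0045, limma). Also called was *mora* (CHORD), the partner of Sgt1 at Hsp90, which was picked out after its values were seen. It had 10.31, 10.30 and 10.36 in ramped and 7.67, 7.50 and 7.61 in unramped flies from 25 °C, against 9.66, 9.72 and 9.58 in ramped and 7.81, 7.69 and 7.73 in unramped flies from 15 °C. Flies from 25 °C were 0.67 above those from 15 °C after ramping, and the difference without it was -0.15 (interaction 0.82, adjusted p = 0.0045, limma).

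*CG7130*, a DnaJ-type cochaperone of Hsp70, had 11.19, 11.15 and 11.31 in ramped and 7.49, 7.34 and 7.28 in unramped flies from 25 °C, against 9.98, 10.02 and 9.99 in ramped and 6.68, 6.94 and 6.96 in unramped flies from 15 °C. Here flies from 25 °C were higher in both assays, and by more after ramping (interaction 0.71 ± 0.12, SE, adjusted p = 0.029, limma). The call of *CG7130* was lost when any of 10 of the 12 arrays was left out, with an adjusted p of at most 0.092, while that of *mora* remained whichever was left out. Of the 20 measured genes of the cochaperone list, *Cdc37* and *CG7130* were called and 11 were above 0, with a median of 0.16 (0.09 without the array with egg shell transcripts). Most of the members not named here were under 0, and the lowest of the list was -0.11. *Stip1* had 0.57 (adjusted p = 0.082), *unc-45*, a myosin chaperone that acts with Hsp90, 0.54 (adjusted p = 0.12) and *DnaJ-1* 0.41 (adjusted p = 0.10). The Hsp90 partners *Fkbp59* and *p23* had 0.52 (adjusted p = 0.31) and 0.11 (adjusted p = 0.69), and the strongly induced *stv* had -0.10 (adjusted p = 0.70, limma).

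The CCT chaperonin, a ring of 8 subunits that folds actin and tubulin, showed interactions of 0.38 to 0.81 for its 8 genes, with a median of 0.67. None of the 8 passed the test over all probe sets (limma), although 7 had an unadjusted p under 0.05. Their levels were raised on the array with egg shell transcripts: *CCT7* read 9.82 there, against 9.25 and 9.28 on the other 2 arrays of its group. Without that array the median was 0.42 and all 8 were above 0, and *CCT7* (interaction 0.59, adjusted p = 0.021, limma) and *CCT3* (0.51, adjusted p = 0.043) were called. In fluctuating flies the median over the 8 genes was 0.07.

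**Figure D2:**
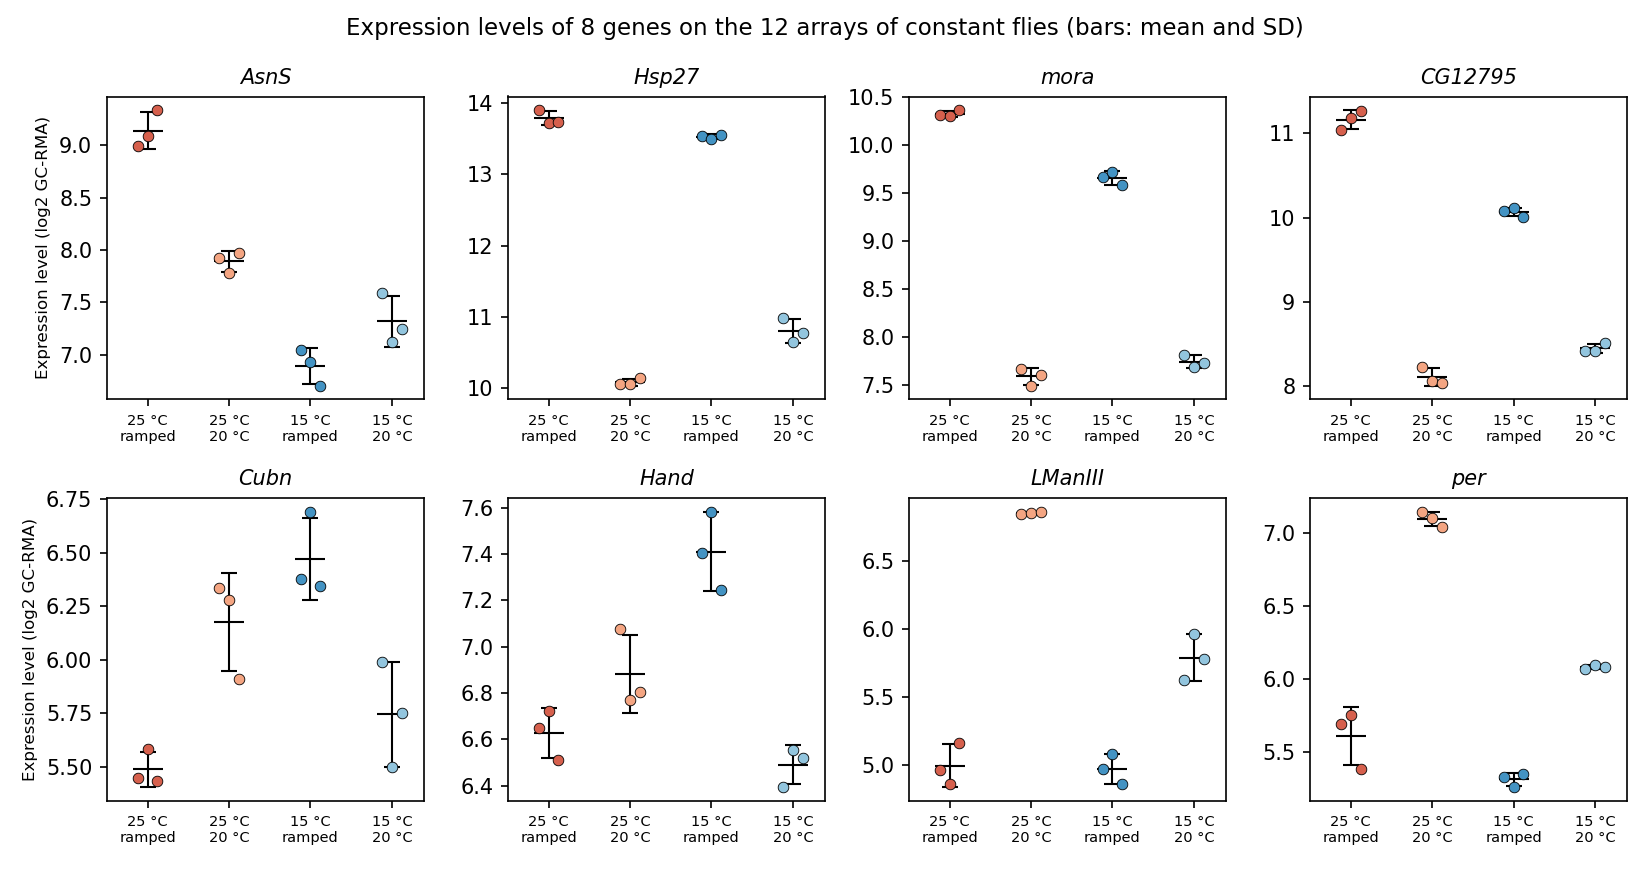
Expression levels (log2 GC-RMA) of 8 genes on each of the 12 arrays of constant flies, with points for arrays, horizontal marks for group means and bars for the SD of 3 arrays. The upper genes rose more with ramping at 25 °C, while *AsnS* fell at 15 °C, and for the lower genes the ramp change was lower at 25 °C, by 1.41 for *Cubn*, 1.18 for *Hand*, 1.04 for *LManIII* and 0.72 for *per*.

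The smallest adjusted p of all probe sets belonged to *CG12795*, for whose product no role is given here. It had 11.04, 11.18 and 11.26 in ramped and 8.23, 8.06 and 8.04 in unramped flies from 25 °C, against 10.08, 10.11 and 10.01 in ramped and 8.42, 8.42 and 8.51 in unramped flies from 15 °C. After ramping the 25 °C arrays were the highest, and without it they were the lowest. The interaction was 1.43 ± 0.11 (SE, adjusted p = 0.00029, limma). *CG6511* had 6.99, 7.005 and 6.95 in ramped and 4.24, 4.90 and 4.97 in unramped flies from 25 °C, against 6.66, 6.63 and 6.61 in ramped and 5.58, 5.84 and 5.88 in unramped flies from 15 °C. Its difference between mean temperatures was -1.06 without ramping and 0.35 after it (interaction 1.41, adjusted p = 0.013, limma).

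Another strongly induced gene, *CG5290*, had 11.30, 11.30 and 11.29 in ramped and 5.90, 6.53 and 6.45 in unramped flies from 25 °C, against 10.62, 10.62 and 10.50 in ramped and 6.94, 6.57 and 6.81 in unramped flies from 15 °C. The arrays of the mean temperatures did not overlap in either assay. Ramping raised it by 5.01 at 25 °C and by 3.81 at 15 °C (interaction 1.20, adjusted p = 0.022, limma), and the call was lost when any of 7 of the 12 arrays was left out (adjusted p of at most 0.081). For *CG18213* the rise was 1.90 at 25 °C and 0.62 at 15 °C (interaction 1.29, adjusted p = 0.0045), and for *CG13926* it was 2.33 at 25 °C and 1.44 at 15 °C (interaction 0.88, adjusted p = 0.0045, limma).

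Several of these genes act in the nucleus. *Taf7*, a subunit of the general transcription factor TFIID, had 9.15, 9.15 and 9.22 in ramped and 5.66, 5.17 and 5.46 in unramped flies from 25 °C, against 8.43, 8.49 and 8.30 in ramped and 5.64, 5.69 and 5.54 in unramped flies from 15 °C. The unramped arrays overlapped and the ramped ones did not, and the interaction was 0.96 ± 0.15 (SE, adjusted p = 0.015, limma). *tra*, the splicing regulator of the sex determination pathway, had 10.94, 10.90 and 10.78 in ramped and 7.92, 7.71 and 7.65 in unramped flies from 25 °C, against 9.99, 9.999 and 9.96 in ramped and 7.78, 7.80 and 7.75 in unramped flies from 15 °C. Again only the ramped arrays separated by mean temperature (interaction 0.91 ± 0.11, SE, adjusted p = 0.0045, limma). The heterochromatin protein gene *HP4* rose by 2.12 at 25 °C and by 1.22 at 15 °C (interaction 0.89, adjusted p = 0.0045, limma). A second probe set of *HP4*, with levels of 3.03 to 3.91, had an interaction of 0.31 (adjusted p = 0.57, limma). *TfIIEalpha*, a further general transcription factor, which was picked out after its values were seen, had an interaction of 0.82 (adjusted p = 0.0048, limma).

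Some metabolic genes were induced more at 25 °C. *Dhdds*, an enzyme of dolichol synthesis, had 9.05, 9.09 and 9.30 in ramped and 7.61, 7.45 and 7.55 in unramped flies from 25 °C, against 8.06, 8.13 and 8.002 in ramped and 7.44, 7.34 and 7.24 in unramped flies from 15 °C. All 25 °C arrays were above the 15 °C arrays of the same assay, by a mean of 1.08 after ramping and 0.20 without it (interaction 0.89, adjusted p = 0.0063, limma). *Mtap*, an enzyme of the methionine salvage pathway that was picked out after its values were seen, rose by 1.92 at 25 °C and by 1.04 at 15 °C (interaction 0.88, adjusted p = 0.0065, limma).

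In 3 of the named genes with a higher interaction the ramp change passed the test at 1 mean temperature and not at the other. *Phk-3*, which encodes a small secreted protein, had 8.18, 8.34 and 8.50 in ramped and 8.20, 8.03 and 8.20 in unramped flies from 25 °C, against 8.09, 7.86 and 8.003 in ramped and 8.92, 8.53 and 8.97 in unramped flies from 15 °C. It fell by 0.82 with ramping at 15 °C (adjusted p = 0.00052, limma), and its change at 25 °C was 0.19 (adjusted p = 0.32). *CG14893* fell by 1.06 at 15 °C and changed by 0.05 at 25 °C (adjusted p = 0.88), whereas *CG43064* rose by 1.36 at 25 °C and changed by 0.30 at 15 °C (adjusted p = 0.17, limma). The interactions were 1.01 for *Phk-3*, 1.11 for *CG14893* and 1.05 for *CG43064* (adjusted p = 0.022, 0.042 and 0.029, limma). The calls of *Phk-3*, *CG14893* and *CG43064* were lost without some single arrays, with an adjusted p of at most 0.13. *CG13360*, picked out because its ramp changes had opposite signs, rose by 0.42 at 25 °C and fell by 0.33 at 15 °C (interaction 0.74, adjusted p = 0.0062, limma).

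Called genes with a lower interaction included receptors of the nephrocytes, the cells that take up proteins from the fly's blood. *Cubn2*, which had the lowest interaction of the called genes, and *Cubn* encode cubilin receptors, which act there together with Amnionless. *Cubn* had 5.45, 5.58 and 5.44 in ramped and 6.34, 6.28 and 5.91 in unramped flies from 25 °C, against 6.38, 6.69 and 6.35 in ramped and 5.99, 5.50 and 5.75 in unramped flies from 15 °C. With ramping it fell by 0.69 at 25 °C and rose by 0.73 at 15 °C, and ramped and unramped arrays did not overlap at either mean temperature. The interaction was -1.41 ± 0.20 (SE, adjusted p = 0.0076, limma).

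*Cubn2* had 3.94, 3.50 and 3.38 in ramped and 4.58, 3.51 and 3.89 in unramped flies from 25 °C, against 5.45, 6.06 and 5.36 in ramped and 4.15, 3.81 and 4.08 in unramped flies from 15 °C. The ramped flies from 15 °C stood above the other groups, which overlapped. Its interaction was -1.99 ± 0.36 (SE, adjusted p = 0.031, limma), its signal was low, and the call was lost when any of 8 of the 12 arrays was left out (adjusted p of at most 0.094). A second probe set of *Cubn2*, with levels of 2.69 to 3.05, had -0.24 (adjusted p = 0.57, limma). *Amnionless* had 4.60, 4.64 and 4.50 in ramped and 4.64, 3.95 and 4.05 in unramped flies from 25 °C, against 5.96, 6.42 and 5.99 in ramped and 4.66, 3.56 and 4.19 in unramped flies from 15 °C. As for *Cubn2*, the ramped flies from 15 °C were above all others. Its interaction was -1.62 (adjusted p = 0.076, limma), and -1.89 without the array with egg shell transcripts (adjusted p = 0.014). Over the 8 measured genes of nephrocyte uptake and lipoprotein receptors none had an interaction above 0, 2 were called and the median was -0.27. The slit diaphragm genes *sns* and *kirre* had -0.02 and -0.22 (adjusted p = 0.97 and 0.67, limma).

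*Hand*, a transcription factor of the heart and the nephrocytes, had 6.65, 6.72 and 6.51 in ramped and 7.08, 6.77 and 6.80 in unramped flies from 25 °C, against 7.40, 7.58 and 7.24 in ramped and 6.39, 6.56 and 6.52 in unramped flies from 15 °C. The ramped flies from 15 °C were above all others. It rose by 0.92 with ramping at 15 °C, and at 25 °C its change was -0.26 (adjusted p = 0.13, limma). The interaction was -1.18 ± 0.15 (SE, adjusted p = 0.0046, limma). *Drat*, which encodes an alcohol dehydrogenase-related protein, likewise rose by 0.83 at 15 °C and had a change of -0.07 at 25 °C (interaction -0.90, adjusted p = 0.014, limma).

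Genes of purine synthesis differed in direction. *Prat2*, which catalyses the first step of the pathway, had 10.57, 10.38 and 10.87 in ramped and 11.88, 12.11 and 12.12 in unramped flies from 25 °C, against 10.91, 10.89 and 10.86 in ramped and 11.08, 11.45 and 11.40 in unramped flies from 15 °C. The unramped flies from 25 °C were above all others. It fell with ramping by 1.43 at 25 °C and by 0.42 at 15 °C (interaction -1.01 ± 0.18, SE, adjusted p = 0.029, limma). *Gart*, which encodes an enzyme of several later steps, had 10.64, 10.59 and 10.73 in ramped and 9.68, 9.74 and 9.86 in unramped flies from 25 °C, against 10.64, 10.60 and 10.70 in ramped and 9.15, 9.10 and 8.87 in unramped flies from 15 °C. It rose by 0.89 at 25 °C and by 1.61 at 15 °C, and the ramped arrays of the mean temperatures overlapped (interaction -0.72 ± 0.12, SE, adjusted p = 0.022, limma). Some other enzymes of the pathway, but not all, were looked up after these values were seen. They had interactions of 0.52 (*Prat*), 0.34 (*Pfas*) and -0.12 (*Paics*), with adjusted p of 0.59, 0.53 and 0.67 (limma). Without the array with egg shell transcripts *Prat* had 0.19 and *Pfas* 0.20. The calls were lost when any of 8 of the 12 arrays was left out for *Prat2* (adjusted p of at most 0.090) and any of 7 for *Gart* (at most 0.081).

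*Cyp12d1-d*, a cytochrome P450 known from insecticide detoxification, had 13.04, 13.14 and 13.05 in ramped and 12.11, 12.29 and 12.21 in unramped flies from 25 °C, against 12.51, 12.38 and 12.55 in ramped and 10.55, 10.51 and 10.80 in unramped flies from 15 °C. Ramping raised it at both mean temperatures, by 0.87 at 25 °C and by 1.86 at 15 °C (interaction -0.99 ± 0.12, SE, adjusted p = 0.0045, limma). It has a near-identical copy, and the signal of the pair may not be separated by the array. A further probe set annotated to both had -1.12 (adjusted p = 0.0045, limma). Of 82 measured genes of the P450 list *Cyp12d1-d* was the only one called, and the median of the list was 0.08 (0.14 without the array with egg shell transcripts). The list was made from symbols that begin with Cyp and also holds *Cypl*, which is not a P450 gene. The lysosomal mannosidase gene *LManIII* had 4.96, 4.86 and 5.16 in ramped and 6.85, 6.86 and 6.87 in unramped flies from 25 °C, against 4.97, 5.08 and 4.86 in ramped and 5.62, 5.97 and 5.78 in unramped flies from 15 °C. The unramped arrays separated by mean temperature and the ramped arrays overlapped (interaction -1.04 ± 0.14, SE, adjusted p = 0.0063, limma).

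The clock gene *per* had 5.69, 5.75 and 5.38 in ramped and 7.15, 7.10 and 7.05 in unramped flies from 25 °C, against 5.33, 5.26 and 5.35 in ramped and 6.07, 6.10 and 6.09 in unramped flies from 15 °C. It fell with ramping by 1.49 at 25 °C and by 0.77 at 15 °C (interaction -0.72 ± 0.13, SE, adjusted p = 0.028, limma). All 4 groups were separate, and the unramped flies from 25 °C were the highest. The call was lost when any of 8 of the 12 arrays was left out (adjusted p of at most 0.093). The other 9 clock genes measured were not called, and *tim*, whose product pairs with that of *per*, had 0.41 (adjusted p = 0.29, limma).

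Further genes with a lower interaction were *CG14219* (-1.60), *CG15043* (-1.38), *CG34376* (-0.99), *CG15533* (-0.96), known as an acid sphingomyelinase gene, *CG7381* (-0.88) and *CG14606* (-0.69), with adjusted p of 0.0045 to 0.022 (limma). The calls of *CG34376* and *CG15043* remained whichever array was left out, while those of *CG14219*, *CG15533*, *CG7381* and *CG14606* were lost without some single arrays (adjusted p of at most 0.082). *CG13325*, looked up after its values were seen, had the lowest interaction of all genes (-2.15) but was not called (adjusted p = 0.074, limma), and without the array with egg shell transcripts it had -1.64 (adjusted p = 0.0061). *CG15043* had 12.44, 12.62 and 12.99 in ramped and 10.69, 10.40 and 10.19 in unramped flies from 25 °C, against 11.70, 11.60 and 11.54 in ramped and 7.90, 7.93 and 8.13 in unramped flies from 15 °C. It rose at both mean temperatures and was higher in flies from 25 °C in both assays. *CG14219* had 4.90, 5.31 and 5.003 in ramped and 7.03, 7.14 and 6.51 in unramped flies from 25 °C, against 4.18, 4.09 and 4.22 in ramped and 4.14, 4.21 and 4.81 in unramped flies from 15 °C. It fell by 1.82 with ramping at 25 °C, and its change at 15 °C, where its levels were low, was -0.22 (adjusted p = 0.52, limma). A second probe set of *CG34376* had -0.32 (adjusted p = 0.55, limma). The glutamate receptor gene *GluRIA*, which was the 16th called gene with a lower interaction, had -0.52 (adjusted p = 0.038, limma).

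The levels behind the interaction differed between the called sets. Among the 50 probe sets with a higher interaction, flies from 25 °C were above those from 15 °C after ramping in 49, by a median of 0.56, and below them without ramping in 37, by a median of 0.20 (a difference of -0.20 over the 50). The arrays of the mean temperatures did not overlap after ramping in 47 of the 50 (94%), against 54.5% of all probe sets, and without ramping in 38 (76%), against 50.5%. Among the 21 with a lower interaction, flies from 25 °C were above those from 15 °C without ramping in 20, with a median difference of 0.91, and after ramping in 12, with a median difference of 0.02. The probe sets were chosen for the change between these differences, so the counts are a description.

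**Figure D3:**
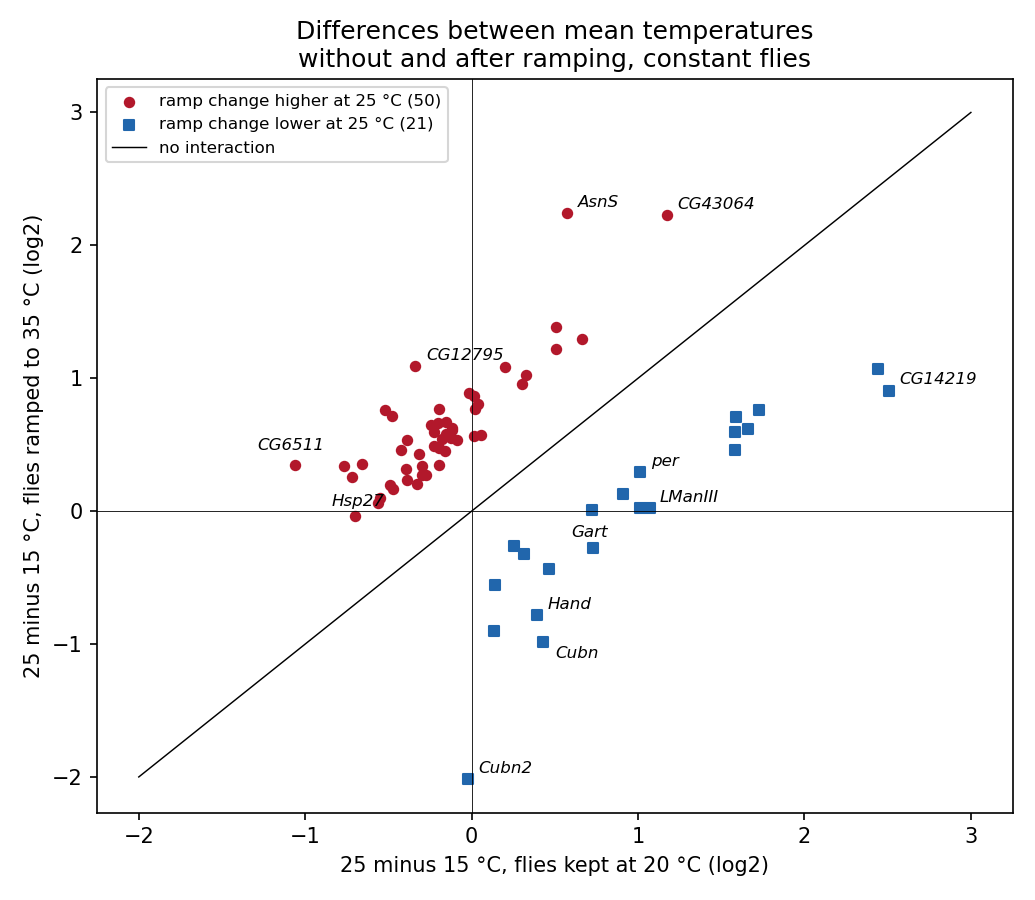
Difference between mean temperatures (25 minus 15 °C constant, log2) in flies ramped to 35 °C (vertical axis) against flies kept at 20 °C (horizontal axis) for the 71 called probe sets. Most red points lie left of 0 and above 0, 36 of 50, and the blue squares lie right of 0 with 1 exception (*Cubn2*), spread around a median of 0.02 on the vertical axis.

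Among probe sets that ramping raised by a mean of over 1, the interaction was mostly above 0, and among those lowered by over 1 it was not. The mean change with ramping over both mean temperatures uses the same arrays but another contrast than the interaction. Of 173 probe sets with a mean change above 1, the interaction was above 0 in 132 (76.3%), the median was 0.35, and 32 were called higher and 5 lower. Among the 15 probe sets with a mean change above 3, 12 had an interaction above 0, with a median of 0.49, and of 0.30 without the array with egg shell transcripts. Of 118 probe sets with a mean change under -1 the interaction was above 0 in 55 (46.6%), the median was -0.03, and 0 were called higher and 5 lower. In fluctuating flies the median over 203 probe sets with a mean change above 1 was 0.08, with 63.1% above 0.

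A few other groups without called members lay mostly to 1 side. The 17 phototransduction genes, which act in the eye, all had an interaction under 0, with a median of -0.26, and 4 of them had an unadjusted p under 0.05. Of 26 testis genes 3 and of 23 ion channel and synapse genes 3 were above 0, with medians of -0.13 and -0.18. In fluctuating flies 7 of the 17 phototransduction genes (median -0.04) and 18 of the 26 testis genes (median 0.05) were above 0. So were 10 of the 23 ion channel and synapse genes (median -0.02). By contrast, in constant flies 15 of 19 accessory gland genes (median 0.03) and 9 of 11 redox enzymes (median 0.10) were above 0. So were 34 of 41 cytosolic ribosomal proteins (median 0.10). Without the array with egg shell transcripts these counts were 18, 9 and 27, with medians of 0.05, 0.10 and 0.01. In fluctuating flies they were 18, 5 and 11, with medians of 0.15, -0.02 and -0.07. Over all genes, counted by 1 probe set each, 46.2% were above 0. The ribosome biogenesis genes depended on a single array: 22 of 27 were above 0 with all 12 arrays (median 0.18), and 9 of 27 without the array with egg shell transcripts (median -0.07). Of 40 proteasome genes 24 were above 0 (median 0.03, and 0.02 without that array), and of 69 genes of oxidative phosphorylation 32 (median -0.0039). No gene was called in any of these groups (limma).

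**Figure D4:**
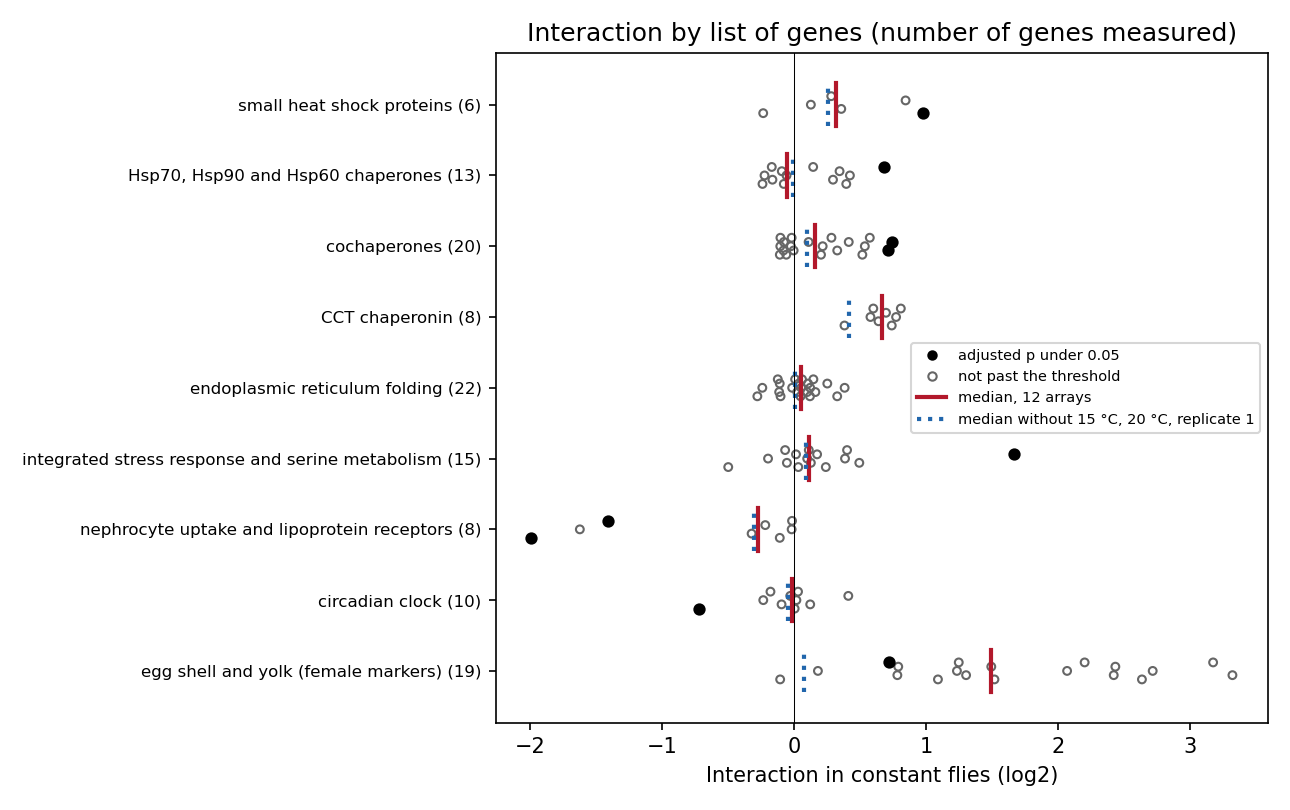
Interaction in constant flies (log2) of each measured gene in 9 lists, with filled points for an adjusted p under 0.05, a solid bar for the median over 12 arrays and a dotted bar for the median without 15 °C constant, 20 °C, replicate 1. The CCT genes all lie above 0 and the nephrocyte genes all under 0, and the median of the egg shell and yolk genes moves to 0.07 without that array, against 1.50 with it.

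Egg shell and yolk genes had interactions above 0 in 18 of 19, with a median of 1.50, and in 11 of 19 without the array that carried them, with a median of 0.07. Only *Cp18*, an egg shell protein gene, was called. Its level on that array was 5.47, against 5.48 and 5.50 on the other 2 arrays of the group. It thus did not follow most of the list, and *Cp15* and *Cp16* were only 0.11 and 0.63 above the other 2 arrays. *Cp18* had 7.90, 7.97 and 7.89 in ramped and 5.30, 5.16 and 5.30 in unramped flies from 25 °C. In ramped flies from 15 °C it had 7.35, 7.48 and 7.45 (interaction 0.72, adjusted p = 0.0053, limma). Of 90 probe sets that read over 2 units higher on that array than on the other 2 of its group, 0 were called, against 0.378% of all probe sets. Such an excess on 1 array widens the spread of its group, as for *Yp1* (3.32 ± 2.43, SE). A call was thus unlikely from the start, and the count does not show whether that array affected other calls.

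The same interaction in fluctuating flies was computed from arrays that the constant flies do not share, 11 in number, leaving out 15 °C fluctuating, 35 °C, replicate 3, which correlated with the other arrays at up to 0.216. All 71 probe sets called in constant flies had the same sign there, against 55.8% of all probe sets, and 45 had an unadjusted p under 0.05, against 6.04%. With all 12 arrays of fluctuating flies 59 of the 71 had the same sign. Only 4 probe sets were called in fluctuating flies (0.0213%), and 2 of them were among the 71. The interaction was larger in constant flies for 64 of the 71, which had been chosen on those values. The median over the 50 that were higher was 0.73 in constant and 0.34 in fluctuating flies, and over the 21 that were lower -0.99 in constant and -0.73 in fluctuating flies.

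For *AsnS* the levels of fluctuating flies were 8.33, 8.24 and 8.50 ramped and 7.61, 7.70 and 7.54 unramped at 25 °C, against 7.21 and 6.64 ramped and 6.69, 7.17 and 7.07 unramped at 15 °C. The ramped flies from 25 °C were again the highest, and at 15 °C ramped and unramped arrays overlapped. The interaction of *AsnS* was 1.67 in constant and 0.79 in fluctuating flies. That of *CG12795* was 1.43 in constant and 0.61 in fluctuating flies, that of *Cubn* -1.41 and -0.43 in the same order, and that of *Gart* -0.72 in constant and -1.33 in fluctuating flies. *Cyp12d1-d* (-0.99 in constant and -1.003 in fluctuating flies) and *per* (-0.72 in constant and -0.73 in fluctuating flies) were close to equal. No difference between the regimes passed the test (limma, 0 of 18769 on 23 arrays, with 923 at an unadjusted p under 0.05, 4.92%). The lowest adjusted p of a called gene for that difference was 0.26, for *CG12795* (0.82 ± 0.14, SE), and 0.29 for *TfIIEalpha* (0.76 ± 0.14).

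**Figure D5:**
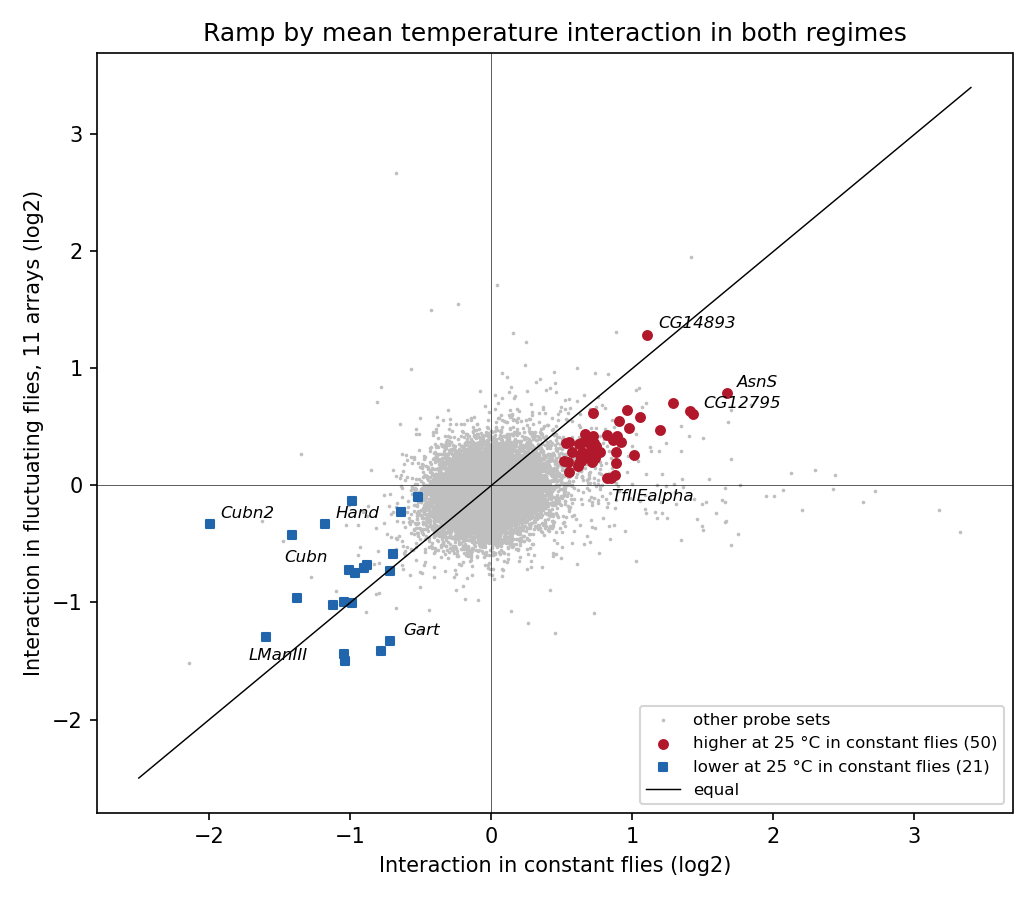
Interaction in fluctuating flies (vertical axis, 11 arrays, log2) against constant flies (horizontal axis, 12 arrays, log2), 1 point per probe set. All 50 red points lie above 0 and all 21 blue squares under 0 on the vertical axis, and 64 of the 71 are closer to 0 in fluctuating flies.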

How the data were processed

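Whole males were measured on Affymetrix Drosophila Genome 2.0 arrays (1 colour, 3 arrays for each of 8 groups, 24 in all). The deposited values are log2 GC-RMA expression levels, which the authors made in R with gcrma 2.40.0 (background correction from probe sequence, normalization, summary per probe set); scanner files were not used here. Arrays carry no counts, so precision comes from the 3 arrays of a group. Nothing in the labels gives a slide or scan date. Groups were taken from the array titles, and all 24 value columns were mapped.

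Of 18952 probe sets 183 controls were left out. The array's annotation gives 1 symbol for 13647 of the remaining 18769, several for 402 and none for 4720; 13544 were matched by gene number to RefSeq (Release 6 names, no coordinates used). Probe sets with several symbols were not named as genes. For a gene with several probe sets, the one with the highest mean over the 12 arrays stands for it (11982 genes).

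Group means of the 12 constant arrays were fitted in limma 3.58.1 (R 4.3.3; tables in Python 3.11.15 with pandas 2.3.3, figures in matplotlib 3.10.9) with no covariate, and the interaction contrast was tested with eBayes. The p-values were adjusted by Benjamini-Hochberg over all 18769 probe sets, with 0.05 as the threshold, and measure only the spread between pools. The code was tested on simulated data. Fluctuating flies were fitted in the same way on 11 arrays and the regimes were compared on 23. The genes named by rule are the 15 called genes with the highest and the 15 with the lowest interaction. Also named by rule are up to 3 called members per list and direction and all measured small heat shock proteins. The rule also asked for all measured members of the Hsp70, Hsp90 and Hsp60 list, but only some are named. Uncalled members of other lists, such as *Stip1*, *Gcn2* and *tim*, are examples outside the rule. Some further genes are marked in the text as picked out after their values were seen. The 34 lists were written by hand. The members and lists were chosen with earlier results of these data known. Alternatives were other sets of arrays, a replicate block, a variance trend, array weights, a minimum mean level of 4, median centring, quantile normalization and leaving out each array. The array with egg shell transcripts had been known beforehand; list values without it were added after seeing the data.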

Additional observations from a re-analysis of the deposited data

Results flagged for a closer look

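The ramp response of 71 probe sets differed between flies from constant 25 °C and from constant 15 °C in the test of the difference itself. In 3 genes the ramp changes had opposite signs and both passed the test (limma): *AsnS*, with an interaction of 1.67, *Cubn*, with -1.41, and *CG13360*, with 0.74. The interactions of all 3 genes remained called without any 1 of the 12 arrays. Their separate ramp changes were not tested in this way, and the fall of *AsnS* at 15 °C was close to the threshold.

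Over 19 egg shell and yolk genes the level on 15 °C constant, 20 °C, replicate 1, exceeded that of the other 2 arrays of its group by a median of 4.70, with a range of -0.02 (*Cp18*) to 9.03 (*Yp1*), although the labels give males only. For 16 of the 19 genes the excess was over 1. How these transcripts came to be on the array was not tested.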

How the results depend on the processing

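The number of called probe sets in constant flies (71) depended on the arrays and the variance model. It was 0 with all 24 arrays in 1 fit (116 at an unadjusted p under 0.05), which takes in the poorly correlating array, and 122 on 23 arrays without it; 47 with the replicate block, 271 with array weights, and 67 to 86 with a variance trend (85), a minimum mean of 4 (86), median centring (67) and quantile normalization (78). Leaving out 1 array gave 36 to 94 calls. The count fell below 71 by over 1.5 times without 15 °C, 20 °C, replicate 3 (47), 15 °C, 35 °C, replicates 1 (42) and 3 (37), 25 °C, 20 °C, replicate 3 (46), and 25 °C, 35 °C, replicate 2 (36), and 32 of the 71 probe sets remained called without any 1 array. In fluctuating flies the 4 calls became 0 with all 12 arrays (48 at an unadjusted p under 0.05), 2 with the replicate block, 2 with array weights, and 1 to 163 without 1 array, the 163 without 15 °C, 35 °C, replicate 1, which leaves 1 array in that group. Between regimes 0 calls became 1 with array weights. Same-numbered arrays deviated together in 2 of 18 pairs (r over 0.1, range -0.37 to 0.12), so the numbers do not pair the arrays. Of 34 called genes named by the rule, 0 changed sign in any of 20 alternatives each, and 17 kept their call in all but the fit of 24 arrays. Levels near the array maximum, and low ones such as those of *Cubn2*, limit how well the size of a difference can be read.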
